A study of Homo sapiens with 5 samples.

Results

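SPDEF, XBP1, AGR2 and MLPH are genes of the luminal secretory programme of breast epithelium, and all 4 were found by symbol among the 12474 genes of the matrix. They were read in 4101 single cells of MDA-MB-468, an established line of triple-negative breast cancer, barcoded here to follow lineages. Untreated cells of day 0 (D0) filled 2 libraries, replicate 1 with 478 cells and replicate 2 with 1063. Cells kept in 250 nM afatinib, a covalent inhibitor of the receptors EGFR and ERBB2, filled 1 library each at day 3 (D3, 479 cells), day 6 (D6, 942) and day 9 (D9, 1139). All cells, the controls included, come from this 1 line in culture and were thawed from frozen stocks, and since no label marks the 2 D0 libraries as separate cultures, the spread between them may be technical. The paper describes them as 2 captures run on different flow cells.

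Secretory luminal cells make, fold and export proteins such as mucins and milk components. SPDEF is an ETS transcription factor that drives secretory differentiation in mucous epithelia. XBP1 is a bZIP factor of the unfolded protein response (UPR), the programme that adjusts the endoplasmic reticulum (ER) to its load of client proteins, and its mRNA is spliced by the sensor IRE1 (gene ERN1) to give the active factor. AGR2 is a disulfide isomerase of the ER that is needed to fold mucins. MLPH (melanophilin) is an adaptor that ties RAB27-bearing vesicles to a myosin V motor. In breast tumours all of them are known as markers of the luminal, oestrogen-receptor-positive type, so the triple-negative line measured here is not their usual setting.

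The genes lie apart in GRCh38, each annotated as protein coding: SPDEF at chr6:34537802-34556333, XBP1 at chr22:28794555-28800597 and AGR2 at chr7:16791811-16833433, all on the minus strand, and MLPH at chr2:237485428-237555322 on the plus strand. XBP1 also has a copy, XBP1P1, annotated as a pseudogene, so XBP1 counts carry the uncertainty of any read that fits both.

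XBP1 carries 2 sequence features that bear on how its counts can be read. The first is an ER stress response element (ERSE, searched on both strands as CCAAT and CCACG with 9 bases between them), the site that ATF6 and XBP1 itself are known to use. It stands in capitals in the XBP1 promoter (RefSeq, GRCh38.p14, chr22:28800520-28800819, minus strand), where it begins 52 bases before the start of the transcript.
XBP1 promoter: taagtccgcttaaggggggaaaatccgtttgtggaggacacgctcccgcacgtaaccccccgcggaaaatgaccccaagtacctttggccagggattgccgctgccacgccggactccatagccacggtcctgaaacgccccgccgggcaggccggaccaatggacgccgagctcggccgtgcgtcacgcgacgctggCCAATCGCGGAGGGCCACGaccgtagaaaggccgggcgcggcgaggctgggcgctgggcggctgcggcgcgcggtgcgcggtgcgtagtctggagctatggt

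The ERSE was found in 27 of 35116 RefSeq promoter windows of 300 bases (0.0769%), and in 8 of the 24 genes with a window among 26 XBP1 and ER chaperone targets. The elements of XBP1 and 4 chaperones are shown because the changes of these genes under afatinib are read further on. Capitals mark the fixed letters, and each element is written along its own strand.
XBP1, chr22:28800603-28800621: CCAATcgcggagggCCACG
HSPA5, chr9:125241391-125241409: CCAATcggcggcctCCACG
PDIA6, chr2:10812853-10812871: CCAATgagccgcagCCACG
CALR, chr19:12938384-12938402: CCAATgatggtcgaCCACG
CRELD2, chr22:49918554-49918572: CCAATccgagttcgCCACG

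The other motifs searched were the UPR element TGACGTGG (0.729% of windows), the E-box CACGTG (7.26%) and the AP-1 site TGANTCA (7.71%). MLPH had 1 E-box, which begins 35 bases before a start site, and the windows of SPDEF and AGR2 held none of these letters.

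The second feature is the stretch that IRE1 removes from the XBP1 transcript, 26 bases at chr22:28796128-28796153 (GRCh38, minus strand), in capitals with 10 bases on each side.
XBP1 IRE1 intron: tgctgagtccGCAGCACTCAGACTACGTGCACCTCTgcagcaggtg
It lies 1573 bases from the 3′ end of the gene. Counts of 3′ tags therefore add the spliced and unspliced forms, and the values for XBP1 below do not tell them apart.

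The libraries differed in depth and RNA make-up. Total counts ran from 14517579 at D3 to 28148379 in D0 replicate 2, and median counts per cell from 13862 at D6 to 45658.5 in D0 replicate 1. Mitochondrial transcripts made up 17.2% of the counts on day 3 and 16.0% on day 6, but 8.82% on day 9 and 7.25% and 7.80% in untreated cells. Across all pairs of libraries 1 cell barcode was shared. All 7 epithelial markers checked, such as EPCAM and KRT8, were present in each library (3779 to 5697 CPM in sum, CPM being counts scaled to library size), no leukocyte marker was in the matrix, and of 6 fibroblast markers COL1A1 alone was, at no more than 7.78 CPM. The deposited counts had been adjusted for batch by the authors, and that adjustment left a trace in these genes that is given with each of them.

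SPDEF and XBP1 rose under afatinib while AGR2 and MLPH fell. Untreated libraries were all of day 0 and treated ones of later days, so the drug and time in culture cannot be told apart. The paper also reports clones that grew in share during treatment. Changes within cells were not separated here from changes in the mix of clones. Their levels are summed counts of a library in CPM. Levels of different genes are not compared with one another.

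SPDEF stood at 14.5 CPM in D0 replicate 1 and 15.1 CPM in replicate 2, then reached 29.0 CPM on day 3, 33.7 on day 6 and 51.9 on day 9. Each treated library lay above both untreated ones, and D9 was the highest, with an exact Poisson 95% interval (49.0 to 54.9) that did not reach that of D6 (30.8 to 36.7). The intervals of D3 and D6 overlapped, as did those of the D0 replicates. Relative to the untreated mean, SPDEF was 1.96 times as high at D3 and 3.51 times as high at D9. The intervals here cover counting error alone, and since each treated day has 1 library no test between days was made.

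XBP1 began at 68.9 CPM in D0 replicate 1 and 64.1 CPM in replicate 2 and was measured at 112 CPM on day 3, 146 on day 6 and 149 on day 9. The order again ran from the untreated libraries through D3, but D6 and D9 had overlapping intervals (139.8 to 152 and 144.4 to 154). At D9 the level was 2.25 times the untreated mean. The ratio of D9 to D3 was 1.33 for XBP1 and 1.79 for SPDEF.

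AGR2 dropped from 14.2 CPM in D0 replicate 1 and 13.6 CPM in replicate 2 to 2.48 CPM on day 3, 1.21 on day 6 and 1.44 on day 9. The treated libraries rested on 36, 19 and 34 counts, and their intervals overlapped one another while lying far below both untreated values. The untreated mean was 5.60 times the level at D3, 11.5 times that at D6 and 9.65 times that at D9. In D0 replicate 1 a single cell held 49 of 326 AGR2 counts, and without that cell the library stood at 12.1 CPM. The highest AGR2 count in any cell was 11 in D0 replicate 2 and 3 in each treated library.

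MLPH showed 39.2 CPM in D0 replicate 1 and 43.3 CPM in replicate 2, against 27.4 CPM on day 3, 25.6 on day 6 and 26.1 on day 9. The 3 treated levels had overlapping intervals, so the order among them is not resolved, and all lay below both untreated levels. The untreated mean was 1.61 times the level at D6 and 1.58 times that at D9.

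**Figure D1:**
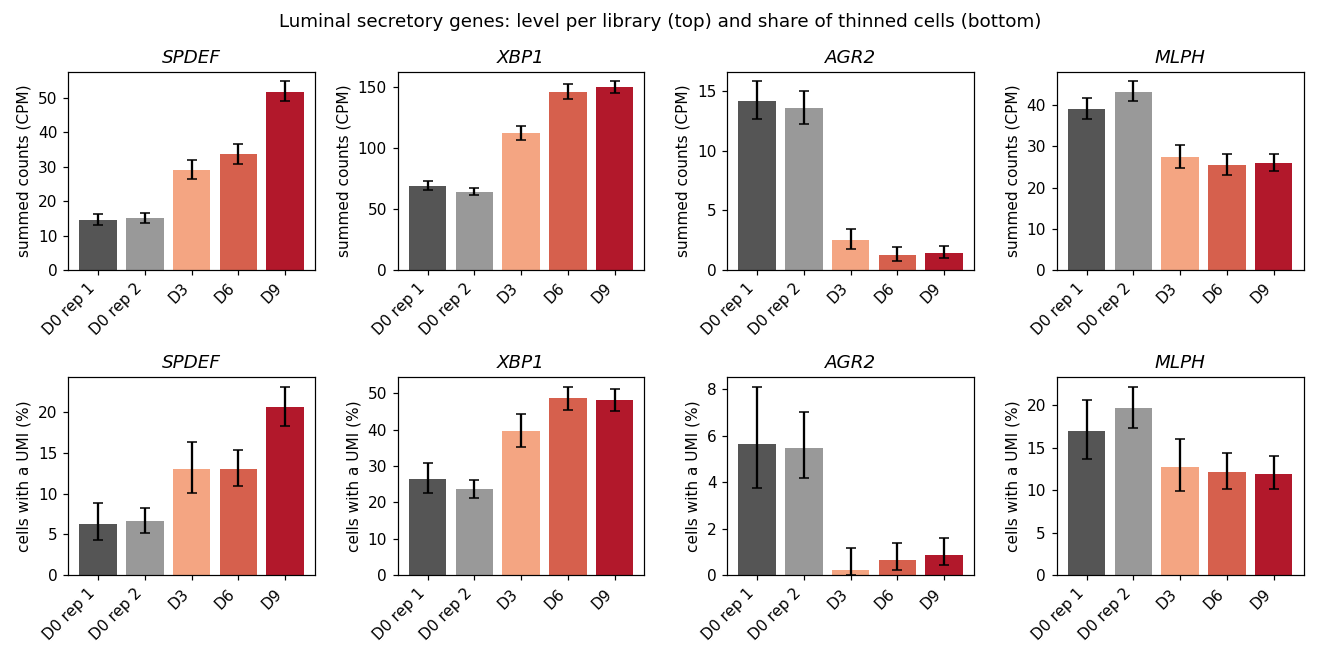
Level of each gene in the 5 libraries: upper row, summed counts in CPM with exact Poisson 95% intervals; lower row, share of cells (percent) in which a UMI was found once each cell was thinned to 5000 UMIs, with exact binomial 95% intervals. SPDEF goes from 14.5 and 15.1 CPM at D0 to 51.9 CPM at D9, and AGR2 from 14.2 and 13.6 CPM to 1.44 CPM.

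The 3 treated libraries were compared with the 2 untreated ones by the quasi-likelihood test of edgeR with Benjamini-Hochberg adjustment over 12145 genes. The spread between the 2 untreated libraries, which enters this test, was measured after the batch adjustment. By the paper's account that adjustment was made because D0 came from 2 captures run on different flow cells. It therefore acted on the difference between these 2 libraries, and the edgeR p-values may be too small. How far it narrowed their spread was not tested. SPDEF rose by a log2 fold change of 1.24 ± 0.257 (SE, edgeR adjusted p = 0.0152) and XBP1 by 0.89 ± 0.190 (edgeR adjusted p = 0.0163). AGR2 fell by 3.18 ± 0.261 on the log2 scale (edgeR adjusted p = 0.00167) and MLPH fell by 0.79 ± 0.126 (edgeR adjusted p = 0.00682). Calls were common in this comparison: 23.2% of the genes tested were called, 13.1% as higher and 10.1% as lower, and in 59.4% of genes the groups did not overlap, as they did not for these 4. The direction split depends on scaling, since leaving out mitochondrial and ribosomal protein genes turned 1590 higher and 1229 lower calls into 1280 and 1490, while the calls of the 4 genes held. Among all genes tested the change of AGR2 stood at percentile 0.395, MLPH at 7.30, XBP1 at 92.9 and SPDEF at 96.6.

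The calls of 3 of the genes need both untreated libraries. Leaving out D0 replicate 1 gave an edgeR adjusted p of 0.124 for SPDEF, 0.142 for XBP1 and 0.0731 for MLPH, and leaving out D0 replicate 2 one of 0.123, 0.191 and 0.121. XBP1 also lost its call without D6 (log2 fold change 0.81, edgeR adjusted p = 0.0636). AGR2 was called whichever library was left out. Without D0 replicate 2 the log2 fold changes were 1.26, 0.84, -3.21 and -0.72 for SPDEF, XBP1, AGR2 and MLPH.

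**Figure D2:**
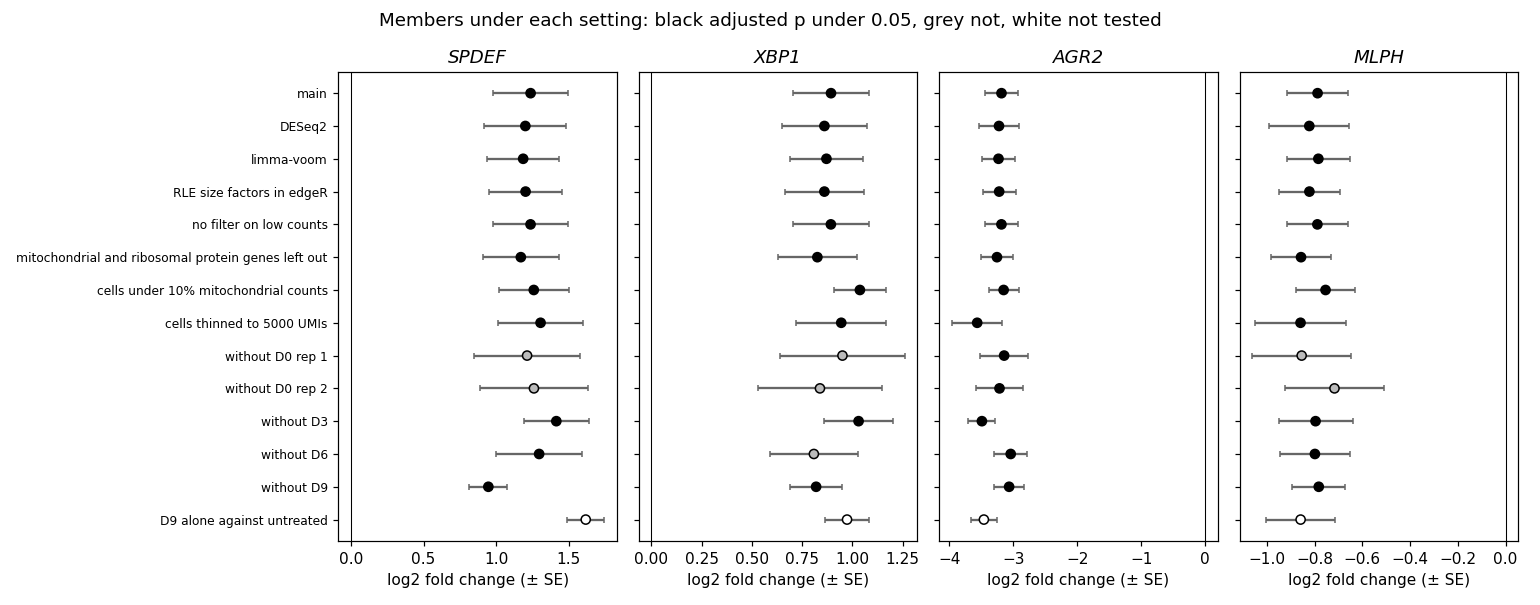
Log2 fold change of each gene, afatinib against untreated, with its standard error (x axis) under the main fit and each alternative (y axis). All values for SPDEF and XBP1 lie above 0 and all values for AGR2 and MLPH below it; grey points, at adjusted p of 0.05 or more, are those without D0 replicate 1 or 2 for SPDEF, XBP1 and MLPH, and without D6 for XBP1.

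D3 and D6 were also the libraries with the most mitochondrial RNA, so the fit was repeated on cells under 10% mitochondrial counts, which kept 85 cells of day 3, 188 of day 6 and 857 of day 9. The log2 fold change was then 1.26 for SPDEF, 1.04 for XBP1, -3.15 for AGR2 and -0.75 for MLPH, and all calls held. With D9 alone against the untreated libraries, an alternative added after the data were seen and not tested, the values were 1.62, 0.97, -3.46 and -0.86.

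Shares of cells moved the same way as levels. After thinning to 5000 UMIs a cell, an SPDEF transcript was found in 6.28% of D0 replicate 1 and 6.59% of D0 replicate 2, then in 12.9% of cells on day 3, 13.1% on day 6 and 20.6% on day 9. XBP1 went from 26.6% and 23.6% to 39.7%, 48.6% and 48.2%. AGR2 was seen in 5.65% of D0 replicate 1 and 5.46% of D0 replicate 2, and in 1 of 479 cells at D3 (0.209%, exact 95% interval 0.00529 to 1.16), 6 of 942 at D6 and 10 of 1139 at D9. MLPH went from 16.9% and 19.7% to 12.7%, 12.1% and 11.9%, and the interval of D0 replicate 1 (13.7 to 20.6) overlapped those of each treated day.

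For SPDEF the treated libraries had a mean share 9.11 percentage points above that of the untreated, and for XBP1 20.4 points above. For AGR2 it dropped by 4.98 points and for MLPH it dropped by 6.04 points. The treated and untreated libraries did not overlap for any of them, with a two-sided exact permutation p = 0.1 each, the smallest that 3 against 2 libraries can give. How many other genes do so in shares was not measured, but in CPM levels the groups did not overlap in 59.4% of genes tested. No cell type that should lack these genes is in the data, so a background share from free RNA could not be measured.

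The XBP1 share also differed with the mitochondrial content of the cells. At D3 it was 55.3% in cells under 10% mitochondrial counts and 36.3% in the others, at D6 56.9% against 46.6% and at D9 52.3% against 35.8%. In untreated cells the gap was smaller, 27.2% against 24.2% in D0 replicate 1 and 24.8% against 18.7% in D0 replicate 2. Whether mitochondrial RNA sets the difference was not tested, but the XBP1 share in low-mitochondrial cells was higher at each treated day than in either untreated library.

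Unthinned shares gave a different picture of 1 gene. Before thinning, 78.7% of D0 replicate 1 and 69.5% of D0 replicate 2 held an XBP1 transcript, beside 76.8% on day 3, 74.1% on day 6 and 83.2% on day 9, so that the groups overlapped at unequal depth. Cells of 15000 to 30000 UMIs were therefore compared without thinning, a choice made after the data were seen. D0 replicate 1 gave 36 such cells, D0 replicate 2 574, D3 172, D6 352 and D9 724, with medians from 21138.5 to 23101 UMIs. In them the XBP1 share was 66.7% and 70.4% without afatinib, and 77.3%, 86.9% and 90.3% on the treated days. The SPDEF share was 27.8% and 28.0% without afatinib, and 38.4%, 43.5% and 53.9% on the treated days.

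In the same cells the AGR2 share fell from 19.4% and 19.7% without afatinib to 2.91%, 2.27% and 3.04% with it. MLPH behaved otherwise. Its share was 47.2% (interval 30.4 to 64.5) and 51.6% (47.4 to 55.7) in the D0 libraries, 50% on day 3 (42.3 to 57.7), 39.5% on day 6 and 42.0% on day 9. The D3 value lay between the untreated ones, so at matched depth the shares of the groups overlapped for MLPH and did not for the other 3 genes. Intervals of D0 replicate 1, from 36 cells, were wide. For SPDEF its interval (14.2 to 45.2) overlapped those of D3 (31.1 to 46.1) and D6 (38.2 to 48.8). For XBP1 its interval (49.0 to 81.4) overlapped that of D3 (70.3 to 83.4), as did that of D0 replicate 2 (66.5 to 74.1). The AGR2 interval of D0 replicate 1 (8.19 to 36.0) lay above those of the treated days. The SPDEF level of its 36 cells was 25.95 CPM (16.3 to 39.3). How often other genes overlap at matched depth was not measured. The summed MLPH level of these cells was 24.8 CPM in D0 replicate 1, from 21 counts (interval 15.3 to 37.9), against 42.4 CPM in D0 replicate 2 and 25.1 to 31.5 CPM in the treated libraries.

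The counts held by single cells carry gaps that raw counts would not hold. In raw counts a gene with many cells at 1 and at 3 also has cells at 2. SPDEF, XBP1 and AGR2 had no cell at 2 in D0 replicate 1, D3, D6 or D9, while D0 replicate 2 had 58, 206 and 34 such cells. For these genes an adjusted count of 3 in 4 libraries cannot be set beside a 2 or 3 in D0 replicate 2. MLPH had another trace: D0 replicates 1 and 2 held 22 and 15 cells at 2 against 105 and 164 at 3, whereas D3 held 29 and 38, D6 54 and 15, and D9 89 and 31. The MLPH level of both untreated libraries thus includes many counts of 3, and the part this has in its fall was not tested. At D9 the cells at 3 numbered 142 for SPDEF and 197 for XBP1, with 0 at 2. The part such gaps have in the rises of SPDEF and XBP1, or in the fall of AGR2, was not tested either. Zeros are left as they are by such an adjustment, so the shares before thinning do not carry the trace. Shares after thinning can carry it, because they were drawn from the adjusted counts.

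**Figure D3:**
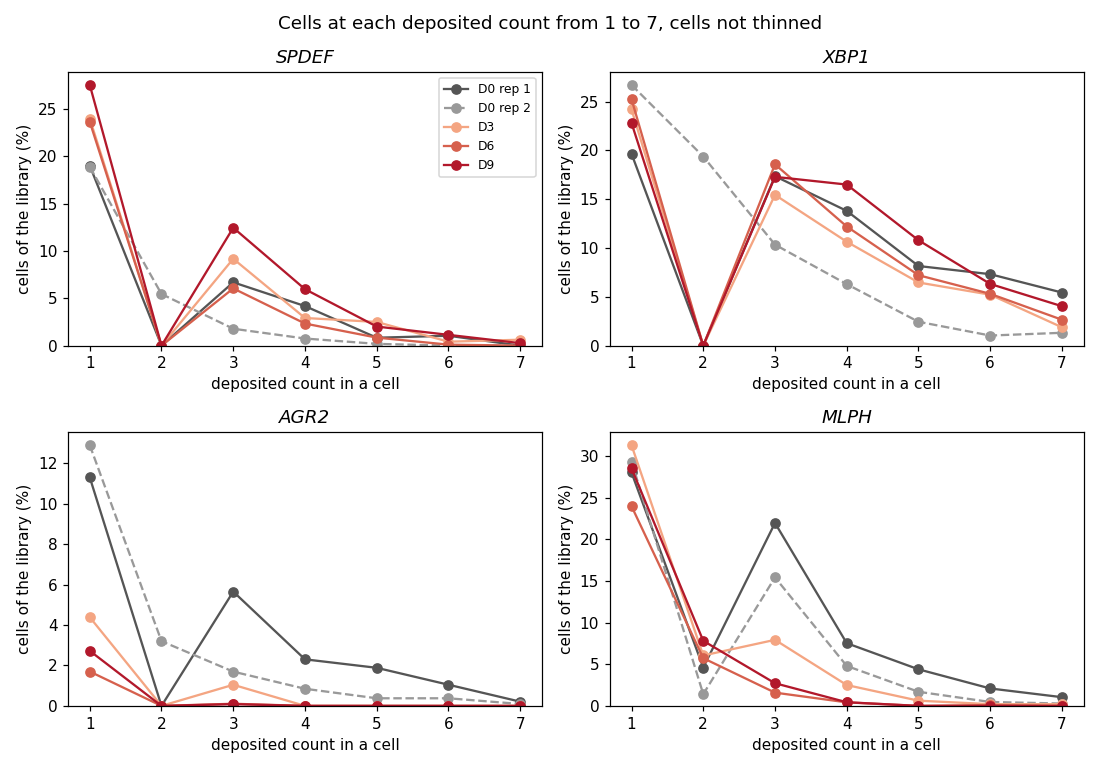
Percent of each library's cells (y axis) that hold a deposited count of 1 to 7 (x axis) of each gene, 1 line per library, cells not thinned. The dip to 0 at a count of 2 is seen for SPDEF, XBP1 and AGR2 in every library but D0 replicate 2, and for MLPH the 2 untreated libraries dip at 2 and peak again at 3.

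SPDEF and XBP1 were found in the same cells at 0.854 to 1.25 times the product of their shares, depending on the library. In thinned cells of D9, SPDEF and XBP1 were found together in 9.22% of cells, where that product is 9.94%. In D0 replicate 1 the pair was found in 2.09% of cells and the product was 1.67%. AGR2 and SPDEF were found together in 2 and 6 untreated cells and in 0, 2 and 1 cells at D3, D6 and D9, which is too few to read. Pearson correlations over the cells of a library were 0.0365 in D0 replicate 1 and -0.0381 at D9 for SPDEF and XBP1. With so few UMIs per cell, weak correlations of this kind are no finding.

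The UPR genes around XBP1 were read next, from a list of 14 sensors and transcription factors that includes XBP1. Of 13 tested, 8 rose and 0 fell by edgeR (1 fell by DESeq2, and 9 higher and 1 lower had an unadjusted p under 0.05), with a median log2 fold change of 0.74 beside 0.047 over all genes tested. The 8, XBP1 among them, are 61.5% of the list, beside 13.1% of all genes tested that rose. DDIT3 (CHOP), a factor of the PERK branch, rose by 1.22 ± 0.263, its level going from 24.9 and 24.0 CPM up to 42.0, 72.5 and 73.0. TRIB3, a pseudokinase downstream of it, rose by 1.16 ± 0.218, and ATF6B, a relative of the sensor ATF6, by 0.99 ± 0.148. ERN1, the IRE1 sensor itself, had 0.69 ± 0.235 and was not called (edgeR adjusted p = 0.0681), and RTCB, the ligase that joins XBP1 after IRE1 has cut it, had -0.42 ± 0.155. The count of 8 fell to 0 without D0 replicate 1 or 2 and to 3 without D6, while the share of all genes that rose was 1.14%, 0.822% and 6.58% in those fits. ERN1 was called without D9 (0.81, edgeR adjusted p = 0.00576).

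The chaperones that XBP1 and ATF6 are known to switch on were read in the same way. Of 26 XBP1 and ER chaperone targets, all tested, 2 rose and 1 fell (5 and 2 by DESeq2), or 7.69% and 3.85% beside 13.1% and 10.1% of all genes, and the median was 0.11. Without D9 the list had 9 rises and 4 falls, in a fit where 28.9% of all genes rose and 27.3% fell, and without D0 replicate 1 or 2 it had none of either. XBP1 itself was one of the 2. The other was HERPUD1, a membrane protein of ER-associated degradation, which had 46.7 and 44.1 CPM before treatment and 105, 312 and 182 CPM in it, a rise of 2.01 ± 0.435. The 1 that fell was WFS1, an ER membrane protein (-1.28 ± 0.245), named after its values were seen because its mean of 4.19 CPM is under the minimum for naming. HSPA5 (BiP), the main chaperone of the ER, had 0.70 ± 0.306 (edgeR adjusted p = 0.134).

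Of the 8 genes of that list with the ERSE shown above, XBP1 alone was called, beside 23.2% of all genes tested. The 7 others, among them HSPA5, CALR, PDIA6 and CRELD2, had log2 fold changes between -0.018 and 0.70. Of these 0 were called by edgeR (lowest adjusted p = 0.134), DESeq2 or limma-voom, and 0 had an unadjusted edgeR p under 0.05. Without D9, HSPA5 was called as well (0.81, edgeR adjusted p = 0.00706). Among the 18 genes of the list in which no ERSE was found, 2 were called, so the calls do not set the ERSE genes apart. Some of these 18 could not be searched, since 24 of the 26 genes of the list had a promoter window. HERPUD1 had no ERSE in its window as searched, but 1 E-box.

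**Figure D4:**
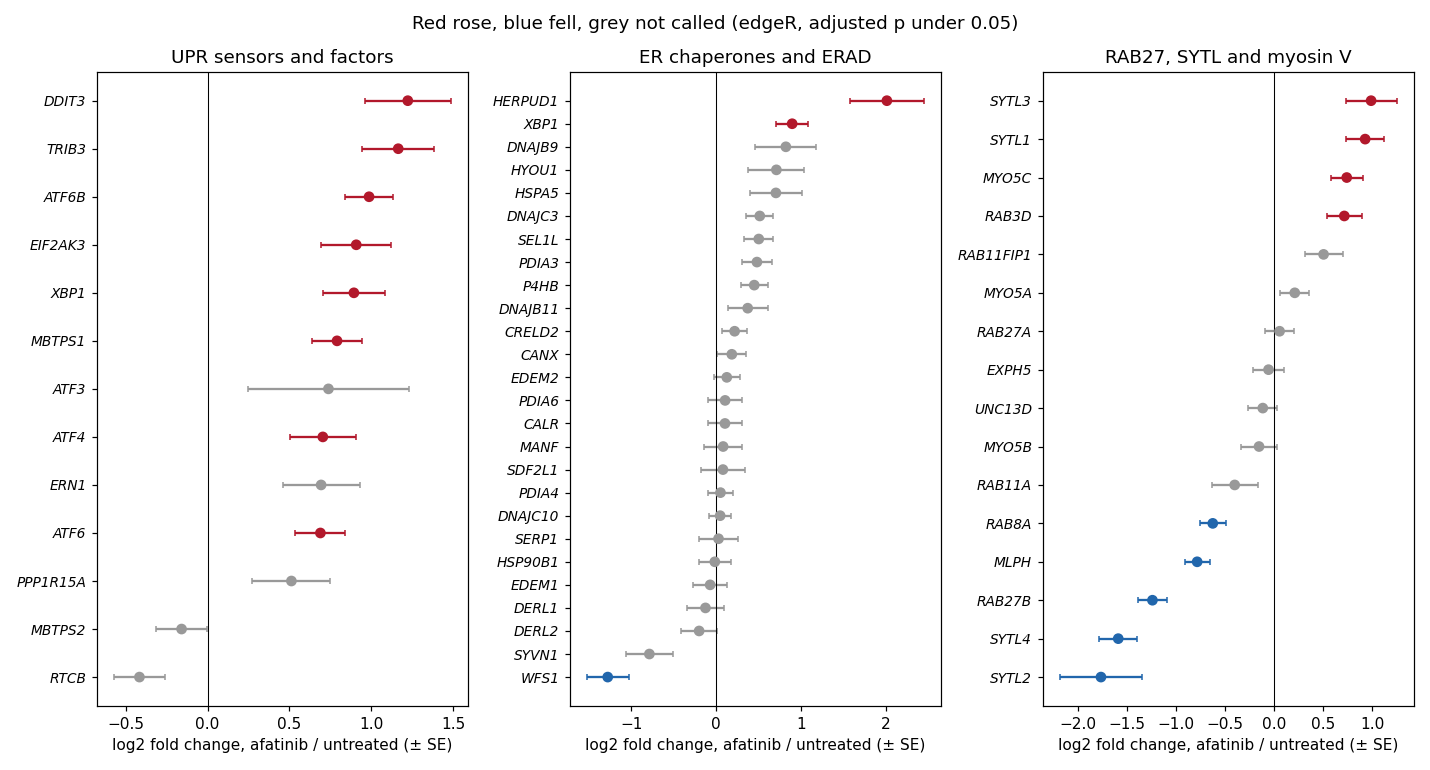
Log2 fold change with its standard error (x axis), afatinib against untreated, for each gene tested in 3 lists. These are UPR sensors and factors (XBP1 included), XBP1 and ER chaperone targets, and MLPH with RAB27, synaptotagmin-like, myosin V and other vesicle genes. In the fit without D9, 28.9% of all genes tested rose. Red genes rose, blue genes fell and grey genes were not called; 8 of 13 UPR genes and 2 of 26 chaperone targets are red, beside 13.1% of all genes tested; without D9 the chaperone count is 9, and without D0 replicate 1 or 2 both counts are 0.

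The machinery that carries proteins into and out of the ER was read beside the shares over all genes tested (13.1% rose and 10.1% fell). In the fit without D9 these shares were 28.9% and 27.3%. Of 23 genes of the translocon and signal peptide machinery 0 rose and 2 fell by edgeR (0 and 3 by DESeq2 and at an unadjusted edgeR p under 0.05; median -0.16), namely SEC61G, the small subunit of the translocon (-1.07 ± 0.303), and SRP19 of the signal recognition particle (-0.64 ± 0.150). The falls are 8.70% of the list. Each was called in 1 of 5 fits that left out a library, the one without D9, where the list had 3 rises and 12 falls. In cells under 10% mitochondrial counts neither was called (SEC61G -0.62, edgeR adjusted p = 0.293, and SRP19 -0.44, edgeR adjusted p = 0.122). Of 25 genes of COPII vesicles, cargo receptors and retrieval 5 rose and 0 fell by edgeR (5 and 1 by DESeq2 and at an unadjusted edgeR p under 0.05; median 0.21). CREB3L2, a membrane-bound factor related to ATF6 that is known to act on secretory genes, rose by 1.48 ± 0.194, its level going from 10.5 and 9.52 CPM up to 33.1, 34.9 and 24.6. CREB3L4 rose by 0.81 ± 0.175, and the cargo receptors MIA2 and MIA3 by 0.80 ± 0.153 and 0.62 ± 0.136. The 5 rises are 20.0% of the list. They fell to 2 in thinned cells, where CREB3L4, MIA2 and MIA3 were not called, to 1 without D0 replicate 1 and to 0 without D0 replicate 2, and without D9 there were 8 rises and 6 falls.

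MLPH was read in 1 list with RAB27, synaptotagmin-like, myosin V and other vesicle genes, not all of them its partners, and the list split. Of 16 tested, MLPH included, 4 rose and 5 fell, with a median of -0.09. That is 25.0% and 31.2% beside 13.1% and 10.1% of all genes, and the 5 include MLPH itself. The rises fell to 1 in thinned cells, to 2 without D6 and to 0 without D0 replicate 1 or 2, and the falls to 3 without D6 and 2 without D0 replicate 1 or 2. RAB27B, one of the pair of GTPases that MLPH-like adaptors bind, fell by 1.24 ± 0.144, from 26.1 and 27.1 CPM to 13.6, 12.7 and 10.96 CPM, while its paralog RAB27A had 0.054 ± 0.150 and was not called. SYTL4 (granuphilin), another RAB27 effector, fell by 1.59 ± 0.193, from 16.6 and 17.1 CPM to 7.71, 5.99 and 4.95 CPM. SYTL1, also an effector of RAB27, rose by 0.93 ± 0.194. RAB27B and SYTL4 were called whichever library was left out, while MLPH was called in 3 of those 5 fits.

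Of 27 AGR2 relatives, mucins and secreted epithelial products, 15 were in the matrix and 11 could be tested, so the list describes few genes. Of these 1 rose (9.09%) and 2 fell (18.2%), beside 13.1% and 10.1% of all genes (28.9% and 27.3% in the fit without D9). SLPI, a secreted protease inhibitor, had 87.4 and 91.7 CPM without afatinib and 226, 321 and 496 CPM on the treated days, a rise of 1.82 ± 0.333. AGR2 and LCN2, the siderophore-binding lipocalin, fell, LCN2 by 1.07 ± 0.284, from 95.4 and 93.8 CPM to 43.3, 33.5 and 71.5 CPM. The secreted products thus moved both ways, and the LCN2 call held in 1 of 5 fits that left out a library and not in thinned cells (edgeR adjusted p = 0.0562). Without D9 the list had 3 rises, and without D0 replicate 1 or 2 it had 0.

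Among 13 epithelial ETS and forkhead factors tested 3 rose and 3 fell (23.1% each, beside 13.1% and 10.1% of all genes, median 0.21). In the fit without D9 the shares of all genes were 28.9% and 27.3%. Besides SPDEF the risers were ETV6 (1.03 ± 0.156) and EHF (0.69 ± 0.1704), both ETS factors, so SPDEF had the largest rise of the list. ERF, an ETS repressor, fell by 0.85 ± 0.198. EHF was not called in thinned cells (edgeR adjusted p = 0.118). In cells under 10% mitochondrial counts 0 of the falls were called by edgeR (ERF -0.72, adjusted p = 0.0917), against 4 by DESeq2 in all cells, and the falls numbered 1 in thinned cells and without D3 or D6. Without D0 replicate 1 or 2 no member was called in either direction, and without D9 there were 5 rises.

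The wider luminal list did not move one way. Of 22 luminal breast identity genes tested 5 rose and 6 fell, or 22.7% and 27.3% beside 13.1% and 10.1% of all genes, with a median of -0.07, and the 4 genes described here are among them, 2 on each side. KIT, a receptor of luminal progenitors, rose by 1.44 ± 0.229. KRT15, a keratin, fell by 2.62 ± 0.283, from 229 and 235 CPM to 60.4, 27.5 and 37.6 CPM. ESR1 was in the matrix at levels too low to test. DESeq2 called 9 falls. The rises numbered 3 in thinned cells and the falls 3 without D6 and 11 without D9, where 27.3% of all genes fell. With D0 replicate 1 or 2 left out, 0 of these luminal genes rose and 2 fell.

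The genes whose levels over the 5 libraries were most like each of the 4 were found by the root mean square difference of centred log2(CPM + 1) values. SPDEF was nearest to BAMBI (0.0568), which went from 16.0 and 16.7 CPM without afatinib to 33.0, 38.7 and 53.1 CPM on the treated days. It was followed by LURAP1L and TRIM7. XBP1 was nearest to SEMA3C (0.0461), then SAT1 and ITGA6. AGR2 was nearest to UCP2 (0.103), CAV1 (0.105) and KRT15 (0.149). MLPH was nearest to FAM98A (0.0127), PPARG (0.02496) and POLR1G (0.0357). Many genes are near one another over only 5 points, and the likeness is given as a description.

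Within libraries, the genes most correlated with each over cells were weakly so. The highest mean r over the 5 libraries was 0.123 for XBP1 (with TPT1), 0.095 for SPDEF (CITED4), 0.0738 for AGR2 (FXYD3) and 0.0620 for MLPH (IGSF8), out of 5017 genes compared.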

How the data were processed

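A Chromium kit that counts 3′ ends was used on MDA-MB-468 cells, giving 5 libraries. Cell Ranger 6.1.2 and the build GRCh38 are named in the submitters' processing notes. The authors filtered cells and genes and adjusted the counts for batch with ComBat-seq, and the deposited matrix holds these expected counts, that is, adjusted UMI counts per gene and cell. All values were whole, so rounding changed nothing. The other deposited columns hold cell names and gene names. Cells were assigned to libraries by the prefix of their names.

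The 4 genes and 8 gene lists were chosen with earlier results of these data known. Counts were summed per library and fitted with edgeR 4.0.16 (quasi-likelihood test, TMM, filterByExpr, 3 residual degrees of freedom, treated days as replicates of treatment). A gene was called where its p, adjusted by Benjamini-Hochberg, was under 0.05. The test had been chosen for plain counts. DESeq2 1.42.0 and limma 3.58.1 (voom) were alternatives, with other scaling, filters, cell sets and libraries left out. The edgeR fit alone was tested on simulated data, drawn as independent libraries with no batch adjustment. All intervals (95%, exact Poisson for levels and exact binomial for shares) reflect counting error alone. Cells were thinned to 5000 UMIs, and the smallest held 5124, so 0 were lost. Doublets had been removed by the authors.

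Besides the 4 genes, the text names for each list the 4 called genes of largest change with a mean of at least 10 CPM, the 3 genes nearest in level over libraries and those most correlated over cells (a UMI in at least 10% of thinned cells of each library). List members not called or under that mean were named after their values were seen. Promoter windows came from RefSeq, and gene positions from the GENCODE annotation of GRCh38. Lineage barcodes were not analysed here.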

Additional observations from a re-analysis of the deposited data

How the results depend on the processing

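Direction held for all 4 genes in every alternative. The log2 fold change ranged from 0.95 to 1.41 for SPDEF, 0.81 to 1.03 for XBP1, -3.49 to -3.04 for AGR2 and -0.85 to -0.72 for MLPH when 1 library was left out. DESeq2, limma-voom, other size factors, no filter, mitochondrial and ribosomal protein genes left out, low-mitochondrial cells and thinned cells kept the call of each. With D9 alone, untested, SPDEF reached 1.62 and AGR2 -3.46. Genes called in all, 1590 higher and 1229 lower, fell to 662 and 707 in thinned cells. With 1 library left out they ranged from 100 to 3504 higher and from 139 to 3313 lower, highest without D9. Without D0 replicate 1 or 2 each gene list had at most 1 rise and 2 falls called.

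Differences in detection share depend on depth. In cells thinned to 2500 UMIs they were 4.76 points for SPDEF, 11.3 for XBP1, -2.18 for AGR2 and -2.09 for MLPH. Without thinning XBP1 had 3.96, AGR2 -18.1 and MLPH -22.4 points. In cells of 15000 to 30000 UMIs SPDEF had 17.3 and AGR2 -16.8 points, and in low-mitochondrial cells XBP1 had 28.9. Leaving out a library gave 6.57 to 10.4 points for SPDEF, 18.8 to 23.3 for XBP1, -5.13 to -4.79 for AGR2 and -7.40 to -4.69 for MLPH. Thinning leaves few AGR2 counts, so differences between treated days were not detectable at this depth.

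No paired analysis was possible because the treated days have 1 library each and carry no replicate number.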
